A study of Mus musculus with 18 samples.

Results

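Transcripts of 10 genes that repair alkylated, oxidised or missing DNA bases were followed in the livers of male mice with and without Hmgn1, a nucleosome-binding protein. The genes were Mgmt, Mpg, Alkbh2, Alkbh3, Apex1, Xrcc1, Parp1, Lig3, Polb and Ogg1. They were measured by all probe sets that the platform annotation gives to one of these symbols, 26 of the 45101 on the array, and each probe set was kept apart. Of the 26, 22 had a mean above the filter on low signals and were tested, at least 1 for each of the 10 genes. The 4 others, 1 of Mpg (1442302_at), 2 of Lig3 (1431715_a_at and 1453986_at) and 1 of Ogg1 (1430078_a_at), had signals of 1.83 to 37.2 and were not tested.

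Each of 6 groups had 3 arrays. The DEN groups were Hmgn1-/- (knockout) and Hmgn1+/+ (wild-type) males injected at 4 weeks of age with 10 µg of N-nitrosodiethylamine (DEN) per g of body weight. The saline groups were knockout and wild-type males injected with saline at the same age, and both kinds of injected animals are labelled 12 weeks. It is uncertain whether these weeks count from birth or from the injection. The remaining groups were knockout and wild-type males without injection at 4 weeks. After an initial cross of heterozygotes the homozygotes of each genotype were bred separately, so that the genotypes are also separate lines. Whether the 3 arrays of a group are 3 animals is not stated, and a p-value here measures only the spread between such samples, which may be technical.

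DEN is turned into an ethylating agent by liver enzymes, and the ethyl groups it leaves on DNA are removed by several routes. Mgmt takes an alkyl group from the oxygen of guanine onto its own protein in a single step, and the dioxygenases Alkbh2 and Alkbh3 strip alkyl groups from ring nitrogens of adenine and cytosine. In base excision repair a glycosylase such as Mpg or Ogg1 cuts out the damaged base, Apex1 nicks the strand at the empty site, Parp1 senses the break, and Polb, Xrcc1 and Lig3 fill and seal it.

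Labels, tissue and arrays were checked before the comparisons. Hmgn1 has 4 probe sets, of which 3 were tested, and none of their 9 genotype differences was called (-0.15 to 0.06, lowest adjusted p 0.577). Since the sources used here give neither the deleted part nor the place of the probes, these signals do not check the labels, and the genotypes below are as labelled. Hepatocyte genes were high, with albumin (Alb) between 13617 and 41754 on all 18 arrays. Of 5 bile duct genes, Krt19 stayed between 1.46 and 25.1, Krt7 between 1.65 and 25.9 and Cftr between 0.14 and 14.8. The other bile duct genes were higher, with Epcam between 13.3 and 54.6 and Sox9 between 23.9 and 79.7. The median signal of an array was 23.3 to 31.5. The 6 saline arrays stood apart: the brightest probe set on each reached 16720 to 21752, against 46967 to 60173 on the other 12. The saline groups and this difference between arrays cannot be told apart. Comparisons with saline were therefore also made after quantile normalization, which gives every array the same distribution. These values stand beside the members' calls against saline and in the plot of DEN differences. For the other genes and the markers only counts are given with quantile values. The ratio of the Gapdh 3' to 5' control signals was 0.91 to 0.94 on the knockout DEN arrays, the lowest of the 18. It was 1.02 to 1.13 with DEN in wild type and 1.19 to 1.41 on the saline arrays. At 4 weeks it was 1.35 to 1.70 in the knockout and 1.13 to 2.19 in wild type. DEN was compared with the uninjected 4-week arrays as well, from which it differs in age, injection and, in the knockout, this ratio. The part of this ratio in the differences was not tested.

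The promoters of 4 of the 5 genes with a called change are shown, so that the sequence around their starts can be read beside their values. Table entries from RefSeq for build GRCm38.p6, covering 250 bases before and 50 bases after the start, matched 9 of the 10 genes. The gene without a match was Polb, so no Polb window is shown. Capitals mark CACGTG, a form of the E-box, which reads the same on both strands, and GGGCGG or CCGCCC, its reverse complement, the GC box. Both strands were searched, and no pair of matches overlaps in the windows shown.
Apex1 (chr14:50924699-50924998, plus strand): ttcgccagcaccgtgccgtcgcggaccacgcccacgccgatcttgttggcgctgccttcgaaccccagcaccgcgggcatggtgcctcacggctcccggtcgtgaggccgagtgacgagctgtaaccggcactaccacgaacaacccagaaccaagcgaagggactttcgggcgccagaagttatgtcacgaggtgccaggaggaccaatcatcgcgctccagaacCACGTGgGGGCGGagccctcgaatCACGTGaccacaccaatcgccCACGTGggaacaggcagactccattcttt
Lig3 (chr11:82780859-82781158, plus strand): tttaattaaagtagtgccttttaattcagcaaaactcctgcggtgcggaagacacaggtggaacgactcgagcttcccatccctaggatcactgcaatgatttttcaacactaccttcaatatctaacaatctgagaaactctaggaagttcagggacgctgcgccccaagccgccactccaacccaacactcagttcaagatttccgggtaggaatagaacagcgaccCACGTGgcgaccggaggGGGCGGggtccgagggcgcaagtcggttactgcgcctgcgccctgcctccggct
Parp1 (chr1:180568641-180568940, plus strand): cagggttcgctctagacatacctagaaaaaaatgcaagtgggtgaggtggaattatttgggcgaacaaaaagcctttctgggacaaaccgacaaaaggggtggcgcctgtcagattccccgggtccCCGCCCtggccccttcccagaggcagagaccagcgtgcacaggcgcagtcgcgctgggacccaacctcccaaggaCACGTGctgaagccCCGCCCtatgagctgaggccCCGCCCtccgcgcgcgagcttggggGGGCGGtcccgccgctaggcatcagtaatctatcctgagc
Alkbh3 (chr2:94010681-94010980, minus strand): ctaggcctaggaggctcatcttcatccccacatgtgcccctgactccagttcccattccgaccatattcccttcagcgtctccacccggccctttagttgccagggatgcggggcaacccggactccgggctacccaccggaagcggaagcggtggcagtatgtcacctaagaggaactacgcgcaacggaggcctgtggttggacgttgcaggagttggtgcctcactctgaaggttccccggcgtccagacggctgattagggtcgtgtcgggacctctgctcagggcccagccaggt
The Apex1 window held 3 E-boxes between 24 bases before the start and 21 bases after it, and the windows of Lig3 and Parp1 held 1 each. Of 32851 promoter windows of this length, 7.15% held an E-box and 0.0883% held 3 or more. GC boxes stood in 35.7% of all windows, and 10.7% held 3 or more. Parp1 and the first Mgmt window held 4 each, and the Mpg window held 3. The letters of neither motif are in the Alkbh3 window. The cyclic AMP element TGACGTCA was in none of the members' windows and in 1.79% of all. A match of letters describes the window and does not show that a factor binds there.

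Between knockout and wild type, none of the 22 probe sets passed the test in any of the 3 conditions. Both ends of their range belonged to Polb, the gap-filling polymerase: probe set 1425371_at with DEN, at -0.77 (adjusted p 0.297, SE 0.21), and probe set 1439840_at at 4 weeks, at 0.55 (adjusted p 0.173, SE 0.20). With DEN, 2 of 27022 probe sets passed in all, or 0.0074%, with saline 0.0111% passed, and at 4 weeks 2.26% passed. Here and below a probe set is called where its limma p, adjusted by Benjamini-Hochberg over all tested probe sets of a comparison, is under 0.05, and differences are in log2 of the signal plus 16. Over the 66 genotype differences the size was under 0.5 in 63, the lowest adjusted p was 0.173, and at an unadjusted p under 0.05 there were 2 with DEN, 1 with saline and 3 at 4 weeks, where 8.97%, 5.28% and 14.9% of all passed that mark. The median over the 22 was 0.0046 with DEN, -0.002 with saline and -0.068 at 4 weeks, beside -0.02, 0.04 and 0.02 over all tested probe sets. The 95% intervals together ran from -1.29 to 0.96, with a median reach of 0.34 to either side, the precision that 3 arrays a group gave. The arrays of the genotypes did not overlap in 2 of 22 probe sets with DEN, 5 with saline and 4 at 4 weeks. Over all tested probe sets this held for 10.8%, 17.7% and 19.5%.

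Those probe sets without overlap between the genotypes are given here as values. With DEN they were Apex1 1416135_at, higher in the knockout, and Polb 1425371_at, lower. With saline, Apex1 1416135_at, Apex1 1456079_x_at at -0.22 (adjusted p 0.941, SE 0.10) and Parp1 1422502_at at -0.16 (adjusted p 0.992, SE 0.11) were lower in the knockout, and Xrcc1 and Polb 1439840_at, at 0.30 (adjusted p 0.992, SE 0.20), were higher. With quantile values Apex1 1416135_at and Polb 1439840_at overlapped between the saline groups. Parp1 1435368_a_at and Ogg1 1448815_at were then lower in the knockout without overlap. The count with saline stayed at 5 of 22, beside 16.5% of all. At 4 weeks Apex1 1416135_at and Parp1 1443573_at were lower in the knockout, and Lig3 1423419_at and Polb 1439840_at were higher. Polb 1439840_at had 77.9, 75.3 and 63.7 in the knockout at 4 weeks, against 35.7, 43.2 and 55.6 in wild type. Lig3 1423419_at had 118, 102 and 93.4 in the knockout at 4 weeks, against 83.8, 84.6 and 70.7 in wild type, a difference of 0.33 (adjusted p 0.349, SE 0.16). Parp1 1443573_at, at low signals, had 4.81, 13.7 and 2.36 in the knockout at 4 weeks, against 20.7, 17.0 and 20.6 in wild type, a difference of -0.66 (adjusted p 0.311, SE 0.30).

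**Figure D1:**
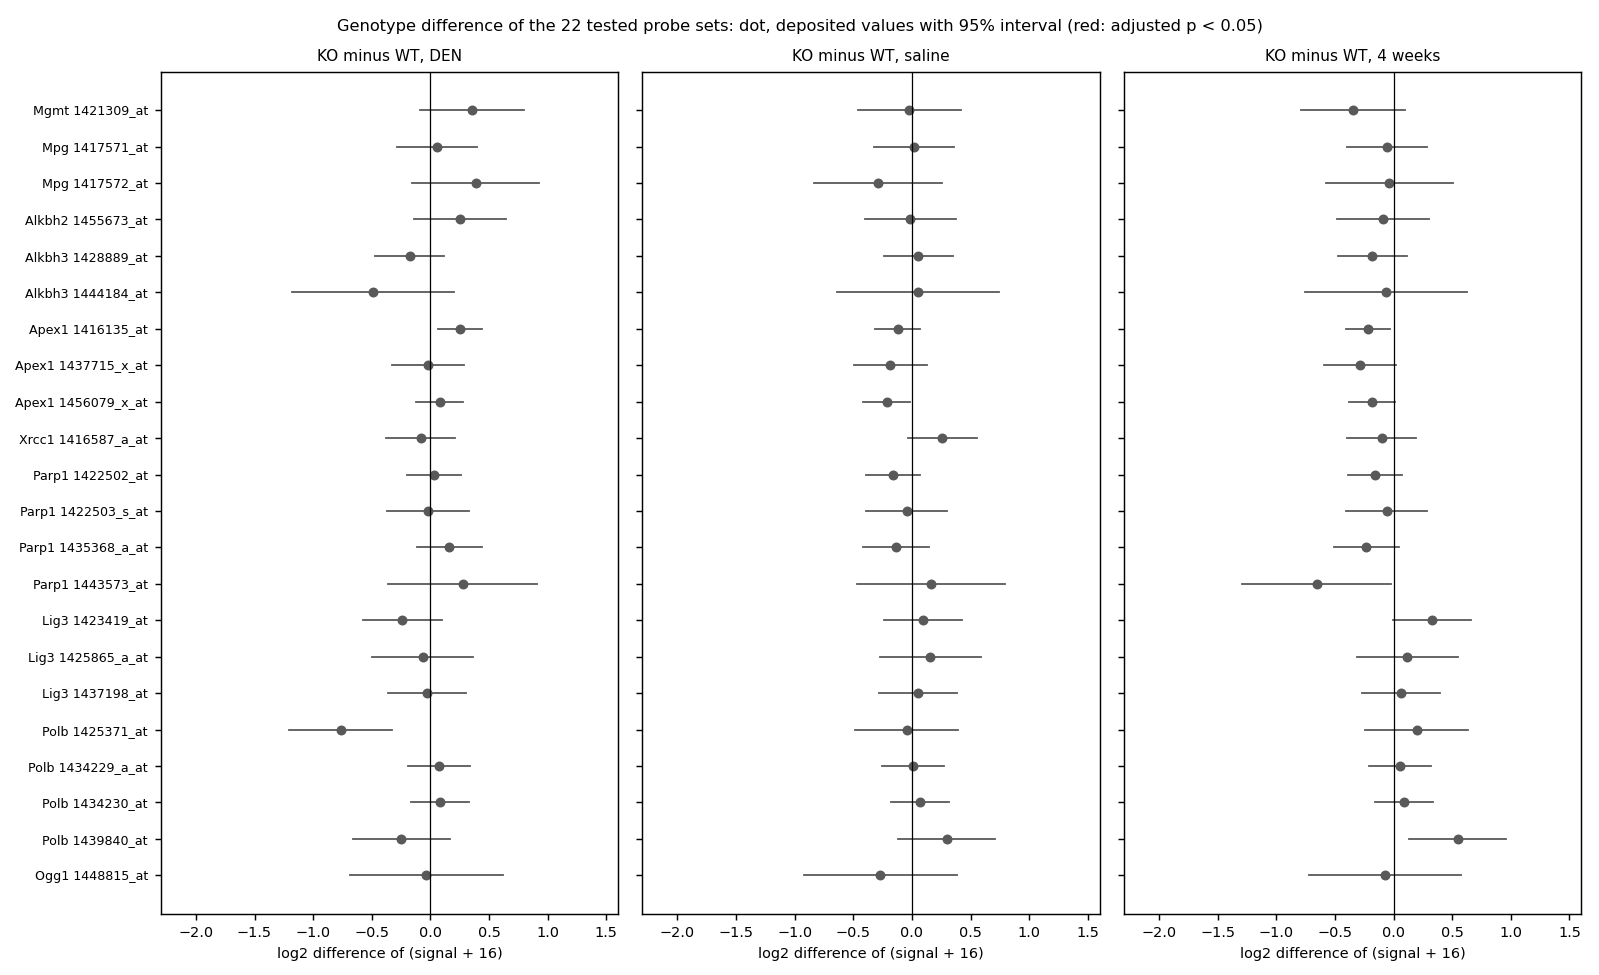
Knockout minus wild-type difference (log2 of signal plus 16) of the 22 tested probe sets with DEN, with saline and at 4 weeks; dots are fitted differences and lines their 95% intervals. No point passes an adjusted p of 0.05; Polb 1425371_at with DEN, at -0.77, lies farthest below 0, and Polb 1439840_at at 4 weeks, at 0.55, farthest above it.

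After DEN, 5 of the 10 genes had a called probe set in at least 1 comparison, and 7 of the 22 probe sets made up these calls. The share of all probe sets called in at least 1 comparison was not counted. At the tested probe set of highest mean of each gene, only Lig3 was called. It was 1 of 10 genes with DEN against saline in the knockout, and 0 were called with quantile values. It was also the 1 of 10 called with DEN against 4 weeks in each genotype. In the knockout, DEN against saline called 6 of 22, 2 of Apex1 higher and 4 of Polb, Lig3 and Alkbh3 lower, where 15.1% of all probe sets passed, 6.42% higher and 8.65% lower. With quantile values 4 of 22 were called, beside 10.9% of all. The same comparison in wild type called 0 of 22 (limma, 6 at an unadjusted p under 0.05), where 6.54% passed and 19.5% were under the unadjusted mark. With quantile values 1 was called, beside 3.63% of all. Against the 4-week arrays, 3 probe sets fell in the knockout, where 8.24% of all passed and 4.71% fell, and 3 fell in wild type, where 4.4% passed and 2.44% fell. No member was called higher against 4 weeks in either genotype. The median over the 22 was -0.06 in the knockout and -0.11 in wild type against saline, and -0.04 in the knockout and -0.13 in wild type against 4 weeks. Over all tested probe sets the medians were -0.09, -0.02, -0.02 and 0.03 in the same order. With quantile values the median over the 22 against saline changed sign in the knockout, to 0.04, with 12 of 22 higher, and was -0.10 in wild type, beside -0.01 and -0.02 over all. DEN against saline and DEN against 4 weeks use the same DEN arrays, and are given side by side. In the knockout the count of 6 against saline was 3 without saline replicate 2 and without saline replicate 3, and the count of 3 against 4 weeks was 1 without 4-week replicate 1. In wild type the count of 3 against 4 weeks was 0 without DEN replicate 2 and without 4-week replicate 2, 1 without DEN replicate 3 and without 4-week replicate 3, and 5 without 4-week replicate 1. That of 0 against saline was 2 without DEN replicate 1 and 1 without saline replicate 3. The test of whether the response differed between the genotypes called 0 of 22 members for DEN against 4 weeks and 0 for DEN against saline with limma, with 6 and 3 at an unadjusted p under 0.05. Over all probe sets 0.762% and 0% were called, and 14% and 8.03% were under the unadjusted mark. Because liver tissue was measured in bulk, fewer cells of a type and less RNA per cell cannot be told apart in any of these differences.

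**Figure D2:**
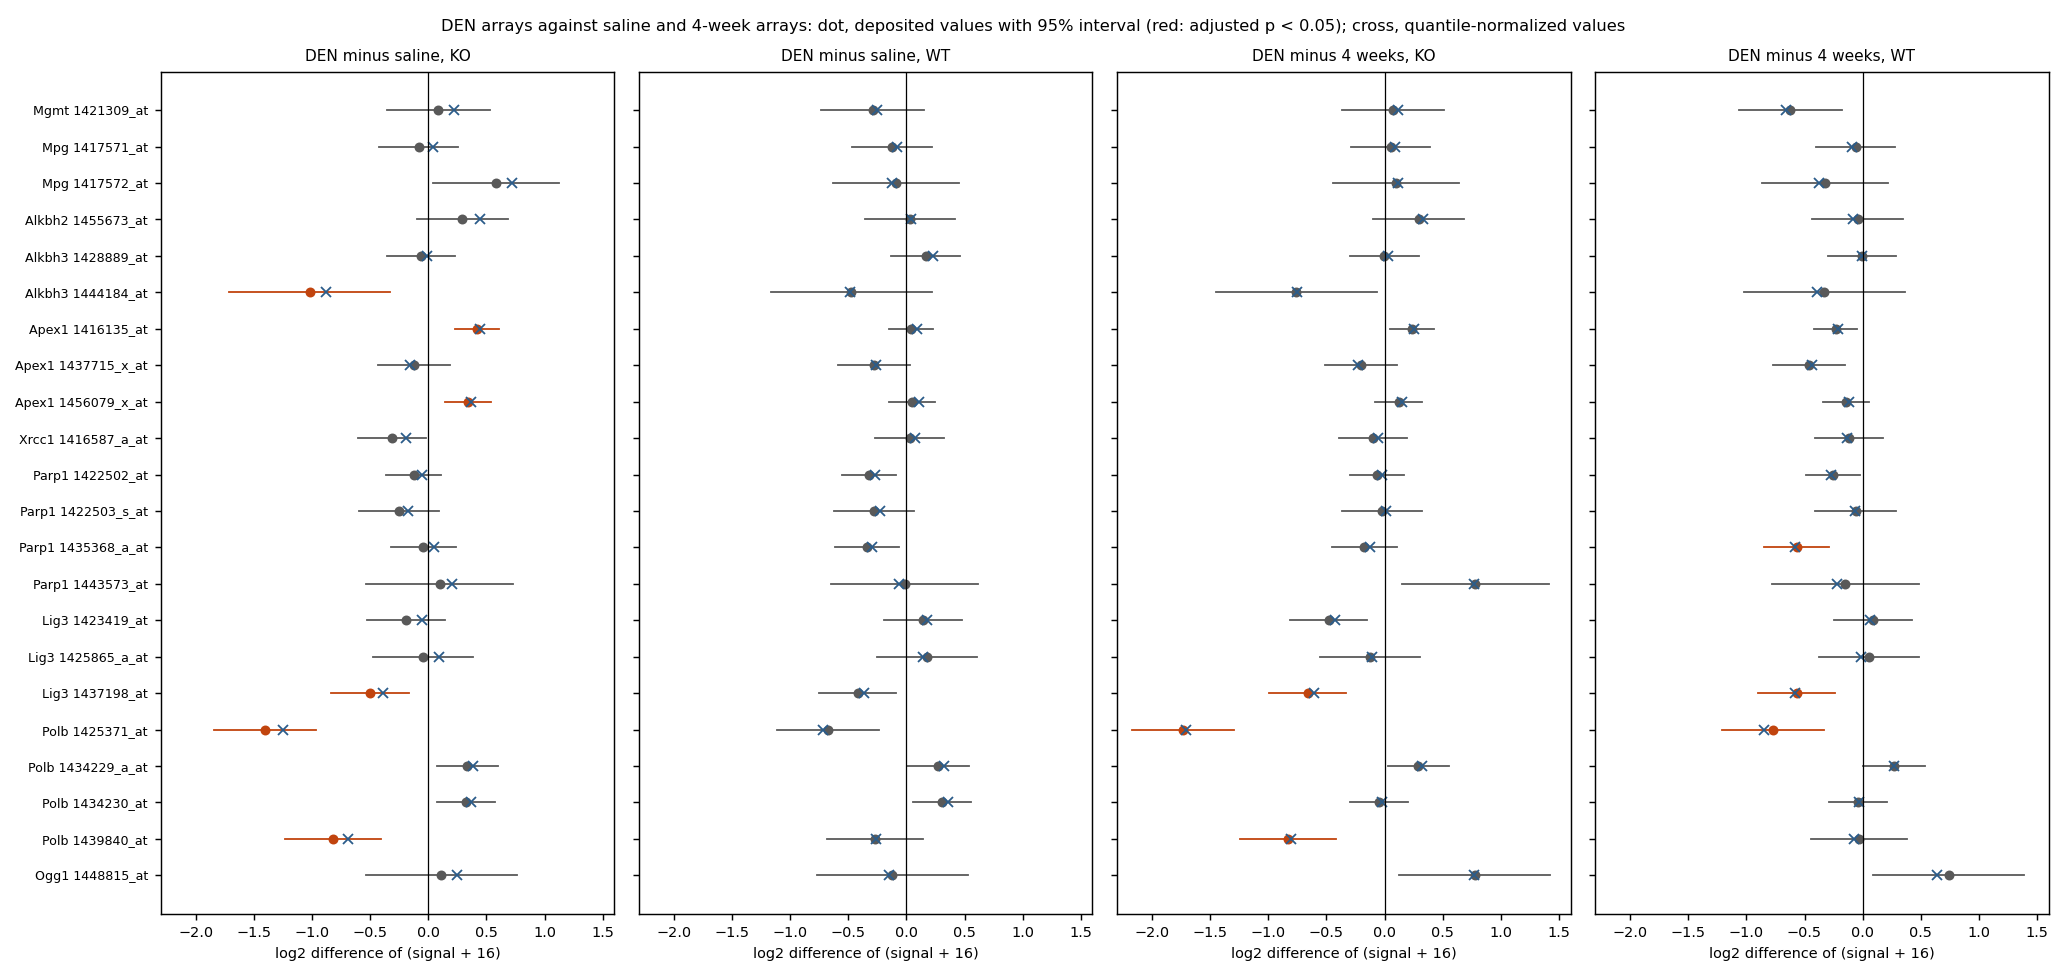
DEN minus saline and DEN minus 4-week differences (log2 of signal plus 16) in knockout and wild type for the 22 tested probe sets; dots are deposited values with 95% intervals, red where the adjusted p is under 0.05, and crosses are quantile-normalized values. Polb 1425371_at lies farthest to the left in all 4 panels, at -1.40 and -1.73 in the knockout and -0.68 and -0.77 in wild type.

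Markers of other liver cells moved with some of these comparisons. The summed signal of 10 macrophage and Kupffer cell genes was 4954 to 7908 in the knockout with DEN, 4436 to 5175 with saline and 3791 to 4144 at 4 weeks. In wild type it was 5165 to 7159 with DEN, 5373 to 6373 with saline and 5776 to 6273 at 4 weeks. Of these 10 genes 8 rose in the knockout with DEN against 4 weeks, where 3.53% of all probe sets rose, and none was called in wild type. Against saline 4 rose in the knockout, and 3 with quantile values, where 6.42% and 5.16% of all rose. Between the genotypes at 4 weeks 3 of the 10 were lower in the knockout, with a median over the list of -0.55. There 1 stellate gene was lower as well, and 0.992% of all probe sets were lower. Of 10 hepatocyte genes 1 was higher there, or 2 with quantile values. In the genotypes' difference in DEN against 4 weeks 1 macrophage gene and 1 stellate gene were called higher and 1 hepatocyte gene lower. Of all probe sets 0.762% were called in that test. Of 8 stellate cell genes 1 rose in the knockout with DEN against 4 weeks, and of 8 endothelial genes none was called there. Of 2 tested bile duct genes 1 was called lower in that comparison, where 4.71% of all probe sets were lower. The summed signal of 7 proliferation genes was 165 to 269 in the knockout with DEN, against 142 to 186 with saline. In wild type it was 162 to 234 with DEN, against 130 to 204 with saline, and none was called in either genotype. The summed signal of 10 hepatocyte genes in the knockout was 213570 to 229275 with DEN, against 108304 to 111309 with saline. There 7 of them were called higher with DEN with deposited values, and with quantile values none was called higher and 1 lower. In wild type this sum was 205579 to 231589 with DEN, against 95333 to 120814 with saline. There 8 were called higher, where 3.4% of all probe sets were, and 1 with quantile values, beside 1.48% of all. Against 4 weeks 2 of the 10 were called lower in the knockout with DEN, with deposited and with quantile values. Of the erythroid list 1 gene was tested, and it was called higher with DEN against saline in both genotypes. It was also called lower with saline against 4 weeks, at -0.69 in the knockout and -0.39 in wild type. These calls, which share the saline arrays, were kept with quantile values. With DEN against 4 weeks it was not called, at -0.006 in the knockout and 0.11 in wild type. The part of these markers in the changes of Apex1, Polb and Lig3 was not tested.

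Among the enzymes that reverse alkylation directly, Mgmt (chromosome 7, 136894463 to 137128193, build GRCm38) had no called difference in any of the 12 comparisons. Its signal was 86.9, 100.1 and 103 in knockout livers with DEN, against 80.4, 48.1 and 94.9 in wild-type livers with DEN. With saline it was 84.5, 97.7 and 88.3 in the knockout and 103, 89.8 and 83.4 in wild type, and at 4 weeks 65.7, 81.9 and 137 in the knockout and 92.9, 148 and 124 in wild type. The groups overlapped within every condition, and the lowest single array was wild-type DEN replicate 2. In wild type the DEN arrays differed from the 4-week arrays by -0.62 (adjusted p 0.0991, SE 0.21), and in the knockout by 0.07 (adjusted p 0.882, SE 0.21). The difference between these responses was 0.70 (adjusted p 0.295, SE 0.30).

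Alkbh2 (chromosome 5, 114123926 to 114131233), which acts on double-stranded DNA near replication forks, likewise had no call. Its signal was 71.4, 87.1 and 77.8 in the knockout with DEN, against 52.6, 65.1 and 66.4 with saline and 66.4, 54.3 and 63.1 at 4 weeks. These DEN arrays lay above all 6 others of the knockout, yet the differences were 0.29 (adjusted p 0.325, SE 0.19) against saline, or 0.44 (adjusted p 0.153) with quantile values, and 0.29 (adjusted p 0.37, SE 0.19) against 4 weeks. Wild-type livers had 43.7, 83.4 and 68.8 with DEN, 54.2, 63.3 and 68.6 with saline and 75.6, 48.1 and 77.8 at 4 weeks, and these groups overlapped. Alkbh3 (chromosome 2, 93980624 to 94010824), which prefers single-stranded DNA and RNA, has 2 tested probe sets that did not move together. Probe set 1428889_at ran from 259 to 428 on the 18 arrays, with pairwise differences between -0.18 and 0.16 and no call. Probe set 1444184_at, at a low signal, had 41.1, 8.09 and 11.1 in the knockout with DEN, against 50.5, 57.8 and 46.8 with saline, and fell by 1.02 in log2 (adjusted p 0.0425, SE 0.33). With quantile normalization this was -0.88 (adjusted p 0.101). The call was lost in 5 of 6 fits without 1 array: it was -0.78 (adjusted p 0.174) without DEN replicate 2, -0.87 (adjusted p 0.138) without DEN replicate 3, and -1.03 (adjusted p 0.099), -0.95 (adjusted p 0.116) and -1.07 (adjusted p 0.0857) without saline replicates 1, 2 and 3. The knockout DEN arrays were uneven, with 1 near the saline arrays and 2 near the floor. The wild-type signal was 65.8, 38.6 and 7.13 with DEN, against 51.4, 47.6 and 48.5 with saline, with overlap. In the knockout DEN against 4 weeks was -0.76 (adjusted p 0.168, SE 0.33), and -1.15 (adjusted p 0.0383) without DEN replicate 1.

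**Figure D3:**
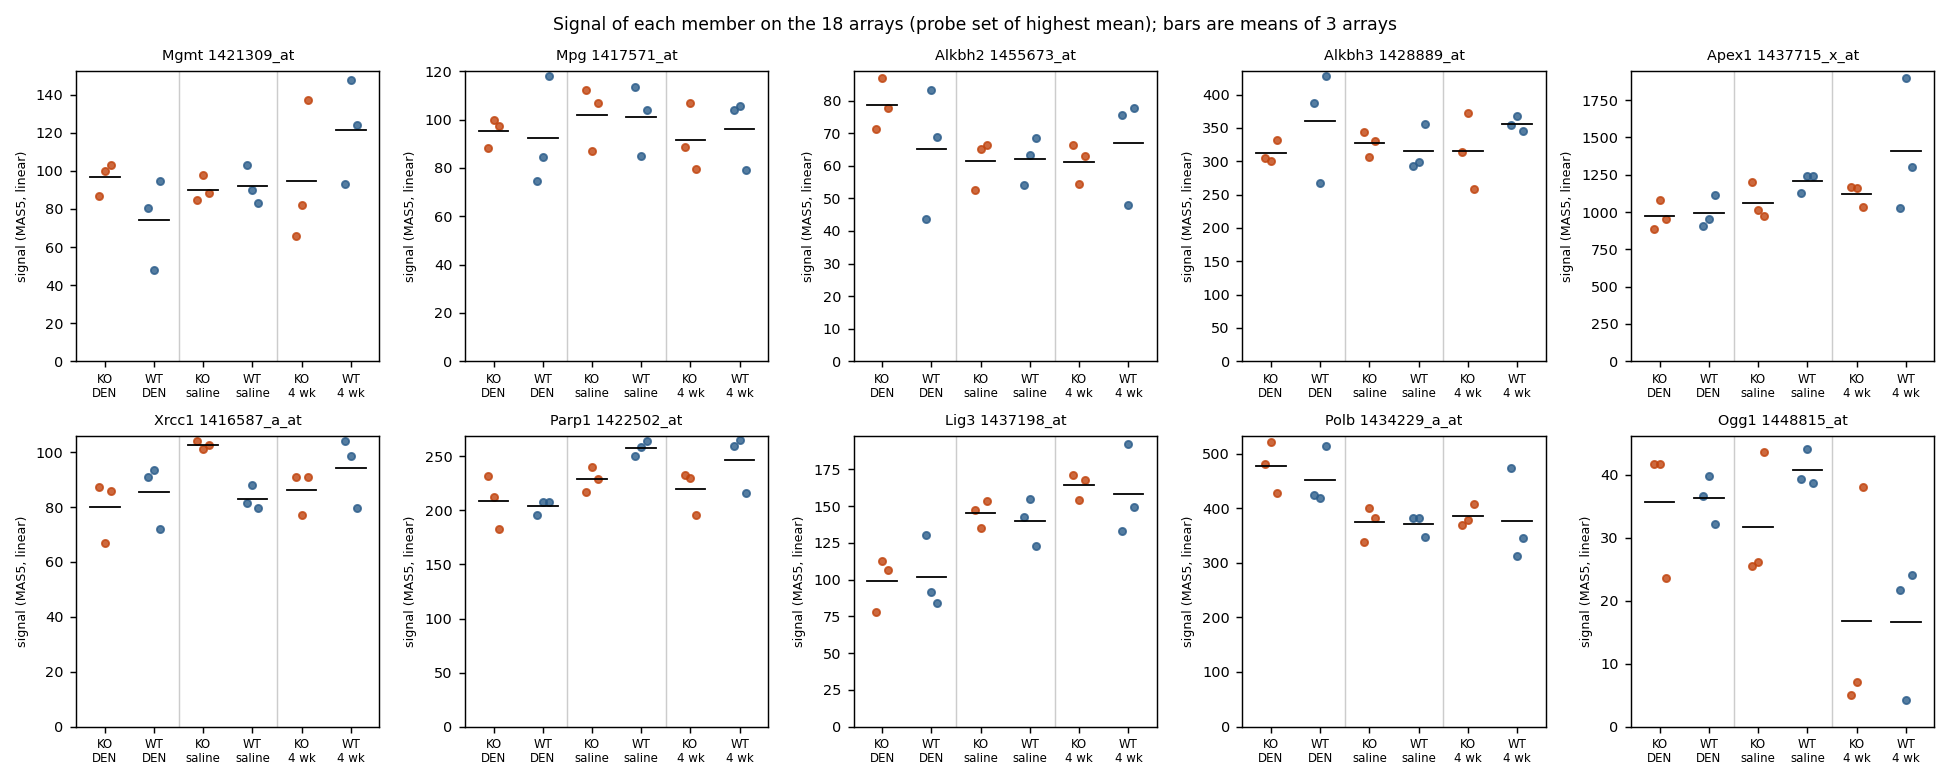
Signal on each of the 18 arrays for the probe set of highest mean of each of the 10 genes; dots are single arrays (red knockout, blue wild type), bars are means of 3, and each axis starts at 0. Mgmt lies between 48.1 and 148, with overlapping genotypes in every condition.

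The glycosylases had no called difference with all arrays in the fit. Mpg (chromosome 11, 32226505 to 32232702), the enzyme that cuts out alkylated purines, had on probe set 1417571_at a signal of 88.2, 99.97 and 97.3 in the knockout and 74.4, 84.6 and 118 in wild type with DEN, 112, 87.2 and 107 in the knockout and 114, 85.0 and 104 in wild type with saline, and 88.7, 107 and 79.5 in the knockout and 104, 106 and 79.0 in wild type at 4 weeks. All groups overlapped, and the pairwise differences lay between -0.12 and 0.13. Its other tested probe set, 1417572_at, was lower in signal and more uneven, with 0.58 (adjusted p 0.143, SE 0.26) as its largest positive difference, in the knockout with DEN against saline, and 0.72 (adjusted p 0.108) with quantile values. Ogg1 (chromosome 6, 113326972 to 113334877), which removes oxidised guanine, lay near the array median on probe set 1448815_at. It had 41.7, 41.8 and 23.5 in the knockout and 36.6, 39.8 and 32.2 in wild type with DEN, 25.5, 26.1 and 43.6 in the knockout and 39.3, 44.2 and 38.7 in wild type with saline, and 5.03, 7.09 and 38.1 in the knockout and 21.8, 4.21 and 24.0 in wild type at 4 weeks. In wild type all DEN and all saline arrays were above the 4-week arrays, by 0.74 (adjusted p 0.193, SE 0.31) and 0.86 (adjusted p 0.10006, SE 0.31), but these differences did not pass. In the knockout, DEN against 4 weeks was 0.78 (adjusted p 0.131, SE 0.31), and 1.21 (adjusted p 0.0264) without 4-week replicate 3, the one 4-week array near the DEN arrays. Saline against 4 weeks in the knockout was 0.66 (adjusted p 0.202, SE 0.31), and it passed, at 1.09 (adjusted p 0.0212), without 4-week replicate 3.

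Apex1 (chromosome 14, 50924949 to 50927188), the endonuclease that opens the strand at a site without a base, rose with DEN against saline in the knockout. On probe set 1416135_at the signal was 589, 669 and 579 in the knockout with DEN, against 454, 447 and 458 with saline, a difference of 0.42 (adjusted p 0.00301, SE 0.09). The DEN arrays were all above the saline arrays. With quantile normalization the difference was 0.45 (adjusted p 0.00268), and the call was kept in all 17 alternatives, with values from 0.35 to 0.53. Wild-type livers had 509, 494 and 529 with DEN and 503, 463 and 521 with saline, which overlapped, at 0.04 (adjusted p 0.862, SE 0.09). At 4 weeks it was 498, 533 and 521 in the knockout and 658, 543 and 613 in wild type. DEN against 4 weeks was 0.23 (adjusted p 0.115, SE 0.09) in the knockout, where all DEN arrays were higher, and -0.23 (adjusted p 0.151, SE 0.09) in wild type, where all DEN arrays were lower.

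The genotypes of Apex1 1416135_at did not overlap in any condition, and the sign differed between conditions. The knockout was above wild type with DEN, by 0.25 (adjusted p 0.435, SE 0.09), and below it with saline, at -0.12 (adjusted p 0.993, SE 0.09), and at 4 weeks, at -0.22 (adjusted p 0.252, SE 0.09). With quantile values the saline groups overlapped. The test of the difference in the DEN against 4-week change between knockout and wild type gave 0.47 (adjusted p 0.0907, SE 0.13), which did not pass, and 0.54 (adjusted p 0.0358) without wild-type 4-week replicate 2. It was not called when the 4-week array of highest Gapdh 3' to 5' ratio was left out in each genotype, which takes out that array and knockout replicate 1. For DEN against saline the same test gave 0.38 (adjusted p 0.466, SE 0.13).

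The other Apex1 probe sets differed from each other. Probe set 1456079_x_at had 584, 626 and 728 in the knockout with DEN, against 533, 479 and 502 with saline, and rose by 0.34 (adjusted p 0.0185, SE 0.10), with 0.37 (adjusted p 0.013) after quantile normalization. In wild type it had 608, 595 and 625 with DEN and 562, 556 and 651 with saline, which overlapped. This call was lost without DEN replicate 3, at 0.26 (adjusted p 0.101), and without saline replicates 2 and 3, at 0.31 (adjusted p 0.0763) and 0.34 (adjusted p 0.0588). Across the 18 arrays the log2 values of these 2 probe sets correlated at r = 0.746. Probe set 1437715_x_at gave -0.12 (adjusted p 0.644, SE 0.15) in the same comparison and correlated with 1416135_at at r = -0.0039. In wild type DEN against 4 weeks was -0.46 (adjusted p 0.0806, SE 0.15) on this probe set, and -0.66 (adjusted p 0.00894) without 4-week replicate 1. Its highest array was wild-type 4-week replicate 2, at 1898, against 1026 and 1305 on the other 4-week wild-type arrays. Probe sets with names in _x_at can also bind related sequences, which was not tested.

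Polb (chromosome 8, 22628119 to 22653464), the polymerase that fills the gap, showed the largest change among the members, and its 4 probe sets went apart. Probe set 1425371_at had 5.58, 6.45 and 5.67 in the knockout with DEN, against 42.5, 34.9 and 48.7 with saline and 60.8, 55.9 and 53.7 at 4 weeks. In wild type it had 30.6, 14.2 and 20.6 with DEN, against 47.7, 52.7 and 32.2 with saline and 37.2, 61.2 and 46.0 at 4 weeks. In both genotypes every DEN array was below every other array of that genotype, and the knockout DEN arrays were below the wild-type ones. The fall in the knockout was -1.40 (adjusted p 8.69e-05, SE 0.21) against saline, with -1.25 (adjusted p 3.74e-04) after quantile normalization, and -1.73 (adjusted p 1.25e-04, SE 0.21) against 4 weeks, and both calls were kept in every alternative that tested it. Because the knockout DEN signal lay below the array medians, near the floor, the size depends on the number added, and against 4 weeks it ran from -3.07 with 1 added to -0.79 with 64.

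In wild type Polb 1425371_at fell against 4 weeks, at -0.77 (adjusted p 0.0407, SE 0.21), and the difference against saline, -0.68 (adjusted p 0.0589, SE 0.21), did not pass. The second passed with quantile values, at -0.72 (adjusted p 0.0477), without DEN replicate 1, at -0.84 (adjusted p 0.027), and without saline replicate 3, at -0.83 (adjusted p 0.0422). The call against 4 weeks was lost without DEN replicate 2, at -0.62 (adjusted p 0.161), DEN replicate 3, at -0.76 (adjusted p 0.0873), 4-week replicate 2, at -0.63 (adjusted p 0.182), and 4-week replicate 3, at -0.78 (adjusted p 0.0883). The difference between the genotypes in this fall was -0.96 (adjusted p 0.14, SE 0.30) against 4 weeks and -0.72 (adjusted p 0.555, SE 0.30) against saline, and the genotype difference with DEN itself was -0.77 (adjusted p 0.297, SE 0.21). None of these passed.

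Polb 1439840_at also fell in the knockout with DEN. Its signal was 32.0, 31.6 and 37.5 with DEN, against 70.5, 78.7 and 65.1 with saline and 77.9, 75.3 and 63.7 at 4 weeks, without overlap. The difference against saline was -0.81 (adjusted p 0.00754, SE 0.20), or -0.69 (adjusted p 0.0259) with quantile values. That against 4 weeks was -0.83 (adjusted p 0.0139, SE 0.20), and -0.78 (adjusted p 0.0651) without 4-week replicate 1. Wild-type signals were 51.8, 56.2 and 25.8 with DEN, 62.9, 59.7 and 44.1 with saline and 35.7, 43.2 and 55.6 at 4 weeks, with overlap and differences of -0.27 (adjusted p 0.508, SE 0.20) and -0.03 (adjusted p 0.95, SE 0.20). Differences of the opposite sign were seen on probe set 1434229_a_at, with 480.3, 522 and 428 in the knockout with DEN, against 338, 401 and 383 with saline and 369.8, 379 and 409 at 4 weeks. These DEN arrays were above all others of the knockout, but 0.34 (adjusted p 0.0804, SE 0.13) and 0.29 (adjusted p 0.166, SE 0.13) did not pass. The first was called with centred array medians, at 0.45 (adjusted p 0.0392). In wild type it had 424, 418 and 514 with DEN, against 383, 383 and 347 with saline and 473, 312 and 345 at 4 weeks. Against saline the wild-type difference was 0.27 (adjusted p 0.245, SE 0.13), without overlap. Against 4 weeks it was 0.27 (adjusted p 0.252, SE 0.13), and 0.44 (adjusted p 0.0345) without 4-week replicate 1. Probe set 1434230_at had 449.9, 460.3 and 409 in the knockout with DEN and 444, 353 and 452 in wild type with DEN, and in the knockout it gave 0.32 (adjusted p 0.0729, SE 0.12) against saline and -0.05 (adjusted p 0.861, SE 0.12) against 4 weeks. The difference against saline was called with centred array medians, at 0.43 (adjusted p 0.0286), and with only the groups compared, at 0.32 (adjusted p 0.0467). Over the 18 arrays 1425371_at correlated with 1439840_at at r = 0.677 and with 1434229_a_at at r = -0.704, as a description of arrays that share their groups. The sources used here do not say where in the gene each probe set lies.

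**Figure D4:**
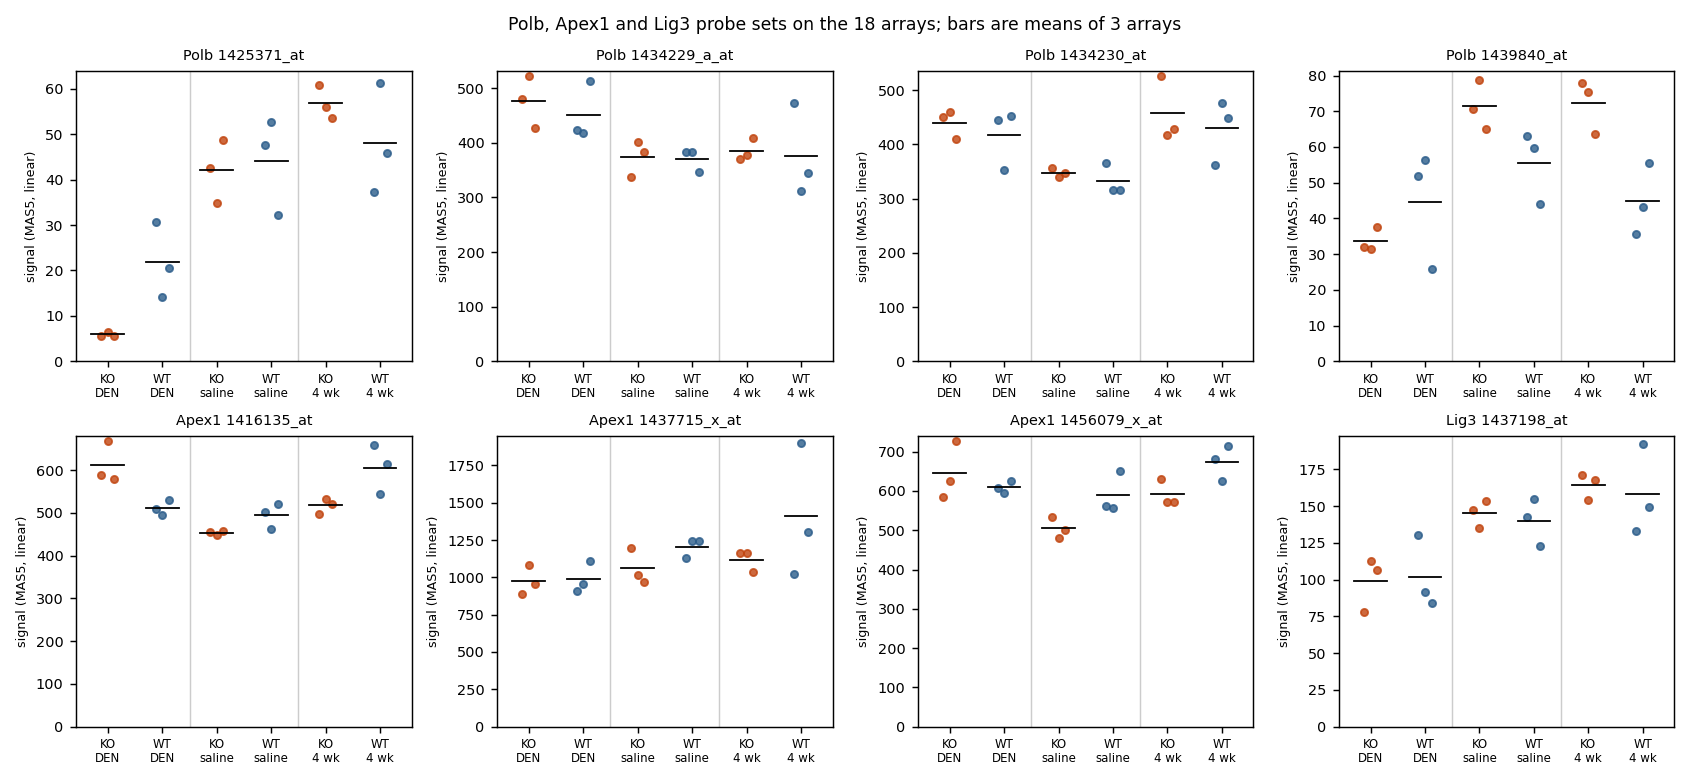
Signal on each of the 18 arrays for the 4 Polb probe sets, the 3 Apex1 probe sets and Lig3 1437198_at; dots are single arrays (red knockout, blue wild type), bars are means of 3, and each axis starts at 0. Polb 1425371_at is at 5.58, 6.45 and 5.67 in the knockout with DEN, below its other 15 arrays, while Polb 1434229_a_at has no such drop.

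Lig3 (chromosome 11, 82781109 to 82804274), the ligase that closes the nick, fell with DEN on 1 of its 3 tested probe sets. Probe set 1437198_at had 77.7, 112 and 107 in the knockout with DEN, against 148, 135 and 153 with saline and 171, 154 and 168 at 4 weeks. In wild type it had 130.1, 91.8 and 84.1 with DEN, against 143, 155 and 123 with saline and 133, 192 and 149 at 4 weeks. The DEN arrays were below all saline and 4-week arrays in the knockout, and below the 4-week arrays but not all saline arrays in wild type. The falls against 4 weeks were -0.66 (adjusted p 0.0145, SE 0.16) in the knockout and -0.57 (adjusted p 0.0455, SE 0.16) in wild type, with a difference between them of -0.09 (adjusted p 0.896, SE 0.23). Against saline they were -0.50 (adjusted p 0.038, SE 0.16) in the knockout and -0.42 (adjusted p 0.132, SE 0.16) in wild type, where only the first passed, and with quantile values it was -0.39 (adjusted p 0.131). The second passed without wild-type DEN replicate 1, at -0.58 (adjusted p 0.0327).

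Each of these Lig3 calls was lost in several fits without 1 array. In the knockout that against 4 weeks was -0.52 (adjusted p 0.0646) without DEN replicate 1, -0.63 (adjusted p 0.0633) without 4-week replicate 1 and -0.65 (adjusted p 0.053) without 4-week replicate 3. That against saline was -0.36 (adjusted p 0.175) without DEN replicate 1, and -0.49 (adjusted p 0.104), -0.55 (adjusted p 0.0578) and -0.46 (adjusted p 0.125) without saline replicates 1, 2 and 3. In wild type the call against 4 weeks was -0.51 (adjusted p 0.143) and -0.46 (adjusted p 0.153) without DEN replicates 2 and 3, and -0.43 (adjusted p 0.208) and -0.60 (adjusted p 0.0863) without 4-week replicates 2 and 3. Of the other probe sets, 1423419_at had 60.9, 86.2 and 64.4 in the knockout with DEN, against 118, 102 and 93.4 at 4 weeks, at -0.48 (adjusted p 0.0673, SE 0.16), and in wild type 0.09 (adjusted p 0.817, SE 0.16). Probe set 1425865_a_at lay between 26.7 and 50.7 and had deposited differences between -0.13 and 0.17 over the pairs of groups.

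Parp1 (chromosome 1, 180568891 to 180600999), the break sensor that builds poly(ADP-ribose) chains, fell on 1 of 4 probe sets, in wild type with DEN against 4 weeks. Probe set 1435368_a_at had 156, 141 and 185 in wild type with DEN, against 218, 297 and 224 at 4 weeks, and fell by 0.57 (adjusted p 0.0197, SE 0.13). The groups did not overlap, but the call was lost without DEN replicate 2, at -0.49 (adjusted p 0.0879), and without 4-week replicate 2, at -0.43 (adjusted p 0.108). In the knockout this probe set had 157, 207 and 180.5 with DEN and 231, 188 and 199.8 at 4 weeks, at -0.17 (adjusted p 0.47, SE 0.13), and the test of the difference between the genotypes gave 0.39 (adjusted p 0.358, SE 0.19). On probe set 1422502_at the wild-type DEN arrays, at 195, 208 and 208, were below the saline arrays, at 250.4, 259 and 264, and the 4-week arrays, at 260.0, 265 and 216. These differences, -0.32 (adjusted p 0.0991, SE 0.11) and -0.26 (adjusted p 0.211, SE 0.11), did not pass. Probe set 1422503_s_at ran from 147 to 268 with overlapping groups throughout. Probe set 1443573_at had 27.0, 40.9 and 7.51 in the knockout with DEN, which overlapped its 4-week arrays, at 0.78 (adjusted p 0.119, SE 0.30), and 1.14 (adjusted p 0.026) without DEN replicate 3.

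Xrcc1 (chromosome 7, 24546699 to 24573438), the scaffold that holds Polb and Lig3 at the break, has a single probe set and no call. Its signal was 87.3, 66.9 and 85.7 in the knockout and 90.9, 93.4 and 72.0 in wild type with DEN, 104, 101 and 103 in the knockout and 81.5, 88.0 and 79.7 in wild type with saline, and 90.8, 77.2 and 90.9 in the knockout and 104, 98.6 and 79.7 in wild type at 4 weeks. The knockout saline arrays lay above the wild-type saline arrays, by 0.26 (adjusted p 0.974, SE 0.14), and above the knockout DEN arrays, with -0.31 (adjusted p 0.149, SE 0.14) for DEN against saline. Neither passed, and with quantile values they were 0.21 (adjusted p 0.99951) and -0.19 (adjusted p 0.422).

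Saline against 4 weeks, which joins age, injection and the difference between arrays, called 0 of 22 probe sets in the knockout and 0 in wild type with limma, with 4 and 3 at an unadjusted p under 0.05. Over all probe sets 9.94% were called in the knockout and 8.26% in wild type, and 23.4% and 20.6% were under the unadjusted mark. With quantile values 1 member was called in wild type, beside 5.24% of all. Polb 1434230_at had 356, 340.0 and 348 in the knockout with saline, against 525, 418 and 428 at 4 weeks, with -0.37 (adjusted p 0.0521, SE 0.12). In wild type it had 366, 316 and 316 with saline, against 362, 477 and 449 at 4 weeks, with -0.35 (adjusted p 0.0792, SE 0.12). Apex1 1416135_at was lower with saline than at 4 weeks without overlap in both genotypes, by -0.18 (adjusted p 0.225, SE 0.09) in the knockout and -0.28 (adjusted p 0.0639, SE 0.09) in wild type, and with quantile values the second was -0.31 (adjusted p 0.0484). This second call also appeared without wild-type 4-week replicate 2, at -0.35 (adjusted p 0.0246), and Polb 1434230_at was called in wild type without 4-week replicate 1, at -0.46 (adjusted p 0.0224). The difference between the genotypes called 0 of 22, with 0 at an unadjusted p under 0.05 by limma, 0.0037% of all probe sets called and 4.02% under the unadjusted mark.

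Other genes of these routes were counted at their tested probe set of highest mean. Of 9 other glycosylases (such as Ung, Tdg and Neil1) 5 were tested and none was called in any of the 12 comparisons. Of 17 other genes of base excision repair 14 were tested, and 1 was called: Pcna, the sliding clamp of replication and long-patch repair, rose in the knockout with DEN against saline by 0.36 (adjusted p 0.0494, SE 0.12). Of 10 other genes of alkylation repair and its relatives, all tested, 1 fell in that comparison, Fto, an RNA demethylase of the Alkbh family, at -0.52 (adjusted p 0.00443, SE 0.12). In wild type Alkbh8, a transfer RNA methyltransferase of that family, was at -0.60 (adjusted p 0.0183, SE 0.15) with DEN against saline and 0.70 (adjusted p 0.00505, SE 0.15) with saline against 4 weeks, comparisons that share the saline arrays. No tested gene of these lists was called between the genotypes. Counted likewise, 1 of 10 members was called with DEN against saline in the knockout, where 15.1% of all probe sets passed. In wild type 0 of 10 were called with DEN against saline and with saline against 4 weeks, where 6.54% and 8.26% passed. These shares are over all tested probe sets, and no share over genes at their probe set of highest mean was counted. With quantile values the base excision and alkylation lists had the same counts in these comparisons. The members then had 0 in the knockout.

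Polb 1425371_at had the widest range of group means among the members. Among 12895 other genes, the patterns most like it over the 18 quantile-normalized arrays were those of Col18a1 (r = 0.905), Vasn (r = 0.865) and Luc7l2 (r = 0.857), as a description of arrays that share their groups. Col18a1 encodes a collagen of basement membranes, Vasn a membrane protein that binds transforming growth factor beta, and Luc7l2 a splicing factor.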

How the data were processed

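The values were intensities (signals on a linear scale) of Affymetrix whole-genome mouse expression arrays hybridised with liver RNA, deposited by the authors as 1 table of 18 arrays. The submitters' processing notes name MAS5, and the trimmed mean of every deposited array was 150. Here 16 was added to each intensity, log2 taken, and probe sets kept whose mean over all arrays reached the 40th percentile, which left 27022 of 45037 after 64 control probe sets were set aside. One limma model (3.58.1, R 4.3.3) with a mean for each of the 6 groups and an intensity trend gave the 12 comparisons, with 12 residual degrees of freedom, so that the number of arrays limits the precision. P-values were adjusted by Benjamini-Hochberg over all tested probe sets of a comparison, with a threshold of 0.05. The genotypes' difference in a response was a contrast in the same model. On data simulated for knockout against wild type with DEN over 27022 probe sets, 49 of 50 changes of 2 in log2, 34 of 50 of 1 and 9 of 50 of 0.5 were recovered. Of changes of -1, 31 of 50 were recovered, and 5 unchanged probe sets were called. The simulated noise was drawn independently for each probe set, so recovery on the real arrays may be lower.

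All probe sets of the 10 genes are described. Called differences were followed through the alternatives, and the other genes of the lists are named where called, at the probe set of highest mean. The genes and lists were chosen with earlier results of these data known. Same-numbered arrays deviated little together: 2 of 45 correlations of their deviations from the group means exceeded 0.1. Alternatives were the number added, the filter, quantile, cyclic loess and median scaling, no trend, array weights, the replicate number as a block, only the groups compared, and leaving out arrays. Gene names came from the platform annotation, which gives 34945 probe sets 1 symbol, 932 several and 9160 none, and gene positions and promoters from RefSeq (GRCm38.p6).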

Additional observations from a re-analysis of the deposited data

How the results depend on the processing

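All 212 alternative values of the 12 called differences kept their direction, and 152 stayed under the threshold. Of the 60 that did not, 26 came from leaving out 1 array. The rise of Apex1 1416135_at against saline and the falls of Polb 1425371_at (against saline and 4 weeks) and Polb 1439840_at (against saline) in the knockout passed throughout. The number of called members was within 1.5 times its value in 200 of 234 alternatives. Most comparisons had no called member, and there this means only that again none was called. The 200 therefore says little about how steady the counts were in the comparisons with calls.

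For DEN against 4 weeks in wild type, 3 members were called; this was 1 when 1 was added, with no filter and with the replicate block, and 0 with array weights, without the saline arrays, without the 4-week array of highest Gapdh ratio in each genotype, and with only the groups compared. For DEN against saline in wild type, 0 were called; this was 1 with quantile normalization, no trend and array weights, and 2 with centred medians. For saline against 4 weeks in the knockout, 0 were called, and 1 with centred medians, the filter at the 60th percentile, array weights and only the groups compared. In wild type that comparison called 0, and 1 with quantile normalization, the 60th percentile filter and without the arrays of highest Gapdh ratio, and 2 with cyclic loess and array weights.

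Leaving out 1 array gave 3 to 5 calls for DEN against saline in the knockout and 0 to 2 in wild type, 1 to 4 for DEN against 4 weeks in the knockout and 0 to 5 in wild type, 0 to 1 for saline against 4 weeks in the knockout and 0 to 1 in wild type, and 0 to 1 for the genotypes' difference in DEN against 4 weeks. Whether the replicate numbers link arrays of different groups is not stated, and the low correlations of same-numbered arrays do not settle it. The cause of these changes was not tested. Signals near the array median, 23.3 to 31.5, limit the lowest values, among them Polb 1425371_at.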
